A study of Mus musculus with 22 samples.

Results

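DNA replication and replication-coupled repair genes were followed across the hearts of stressed and unstressed mice. The 44 members are the genes of that name in the deposited expression table, which lists 21898 genes, and they were taken from the machinery that copies DNA, supplies its building blocks, restores its methylation and chromatin, and repairs breaks at the fork. All 44 were in the table and all 44 passed the filter on low counts. They were sorted by role into 16 genes of licensing and the helicase, 11 of the polymerases, the sliding clamp and its loader, 5 of single-strand binding and Okazaki fragments, 5 of nucleotide supply, 4 of methylation and chromatin copying, and 3 of replication-coupled repair.

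DNA is copied once per cell cycle. Before S phase, the origin recognition complex, Cdc6 and Cdt1 load the ring of Mcm2 to Mcm7 onto origins, and in S phase this ring joins Cdc45 and the GINS complex to become the moving helicase. Polymerases held by the clamp Pcna then extend both strands, while replication protein A covers the exposed single strand and Fen1 and Lig1 join the lagging strand fragments. Many of these genes are targets of E2F factors and are transcribed mainly in cells that prepare to divide. Cardiomyocytes of the adult heart rarely divide, so that in a whole heart such transcripts come largely from other dividing cells or are held at low levels.

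RNA of whole hearts from male mice, of a strain that is not given in the sources used here, was sequenced as 11 paired-end libraries. The mice were 6 weeks old when they were divided into groups, and hearts were removed after the 3 weeks of stress. The control group (3 libraries) was left unstressed with free access to food and water. The case group (4 libraries) was exposed to chronic psychological stress by mixed stressors, among them social defeat, restraint, electric shock and forced swimming, for 3 weeks. The treatment group (4 libraries) carried the same stress and was also injected intraperitoneally with JWH133, an agonist of the cannabinoid type II receptor (CB2R), at 10 mg/kg over the 3 weeks, and no vehicle for the other groups is stated. Stress is therefore shared by the case and treatment groups. Stress without JWH133 was measured, but the series holds no group given JWH133 without stress.

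Depth was alike, with 29410822 to 34412849 counts per library. On the first principal component (42.7% of the variance) case library d lay at -9.81, near the treatment libraries (-22.67 to -9.94) and far from the other case libraries (29.71 to 64.64), so results that rest on it are also given without it. All 6 cardiomyocyte markers were abundant, with summed levels of 13700 to 14380 FPKM in the control libraries, 8966 to 14690 in the case libraries and 12080 to 14560 in the treatment libraries. Of 7 erythroid markers tested, 6 rose in the case group (summed 221.6 to 265.0 FPKM in control and 608.1 to 1067 FPKM in case libraries), and 5 rose in the treatment group (795.7 to 1715 FPKM). Of 5 neutrophil markers tested, 3 rose in the case group (summed 1.01 to 1.23 FPKM in control, 6.12 to 14.6 FPKM in case and 2.57 to 20.3 FPKM in treatment libraries). B cell markers, of which 4 were in the table and only Cd79b passed the filter on low counts, were at a summed 0.746 to 1.01 FPKM in control, 0.0207 to 0.386 FPKM in case and 0.337 to 0.472 FPKM in treatment libraries, so that both stressed groups lay below the controls without overlap. Cd79b fell in the case group (log2 -2.39) and did not pass in the treatment group. Endothelial markers were at a summed 199.8 to 211.1 FPKM in the control libraries, 188.5 to 204.5 FPKM in the case libraries and 187.4 to 212.9 FPKM in the treatment libraries. Of these 7 markers, 1 fell and 1 rose in the case group. Of 7 fibroblast markers, 2 rose in the case group (summed 190.6 to 219.4 FPKM in control, 159.8 to 507.6 FPKM in case and 171.0 to 323.1 FPKM in treatment libraries). Of 7 macrophage markers, 1 rose in the case group (94.0 to 99.1, 86.0 to 153.9 and 87.9 to 121.4 FPKM). The part of these markers in the results below was not tested, and in bulk samples fewer cells of a type and less RNA per cell cannot be told apart.

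Replication genes were lower in stressed hearts. In the case group, 17 of the 44 members fell (38.6%), 0 rose and 27 did not pass an adjusted p of 0.05 (edgeR quasi-likelihood test, Benjamini-Hochberg over 14050 genes), whereas 7.55% of all genes tested fell and 8.21% rose. At an unadjusted p under 0.05, 24 members were lower and 1 was higher, and with DESeq2 1 member rose. The median log2 fold change of the members was -0.56, beside 0.01 for all genes tested, and 33 of 44 values lay below 0. In 24 of 44 members each case library was below each control library on library-scaled counts (CPM with TMM factors), beside 13.4% of all genes tested. The rule of the study for DE-mRNAs was a log2 fold change beyond 1 in size at an unadjusted p under 0.05, with limma. Applied here and below to the edgeR fit, it was met by 13 members, all lower, beside 7.23% of all genes. Fewer members met it with limma on log2(FPKM + 1). Among the 17 genes that fell, the case mean ranged from 17.1% of the control mean (Brca1) to 71.5% (Dnmt1), with a median of 43.2%.

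The libraries of the case group were unequal in this respect. For 14 of the 17 genes that fell, case library d had the highest FPKM of the case group. For all 17 it remained below each control library, in part because the calls were made with this library in the fit. Among all 44 members, case library d was the highest of its group in 24 and the lowest in 9. It was below each control library in 25 of the 44. How often it took these places over all genes tested was not counted. Since it also stood apart on the first principal component, these counts are not shown to be particular to the members. Without case library d, 22 members fell and 2 rose (Mcm7 and Rfc1), and the 17 calls were all kept. Over all genes, 4479 passed in that fit, beside 2215 with each library kept. Leaving out 1 of the 3 control libraries lowered the count. Without control library a, b or c, 10, 10 and 8 members fell, beside 704, 794 and 746 of all genes that passed. When only the case and control libraries entered the fit, 11 members fell, beside 858 of all genes that passed. The 7 genes Mcm2, Mcm5, Tk1, Rrm2, Dut, Uhrf1 and Brca1 passed in each of the 11 fits that left out 1 library.

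**Figure D1:**
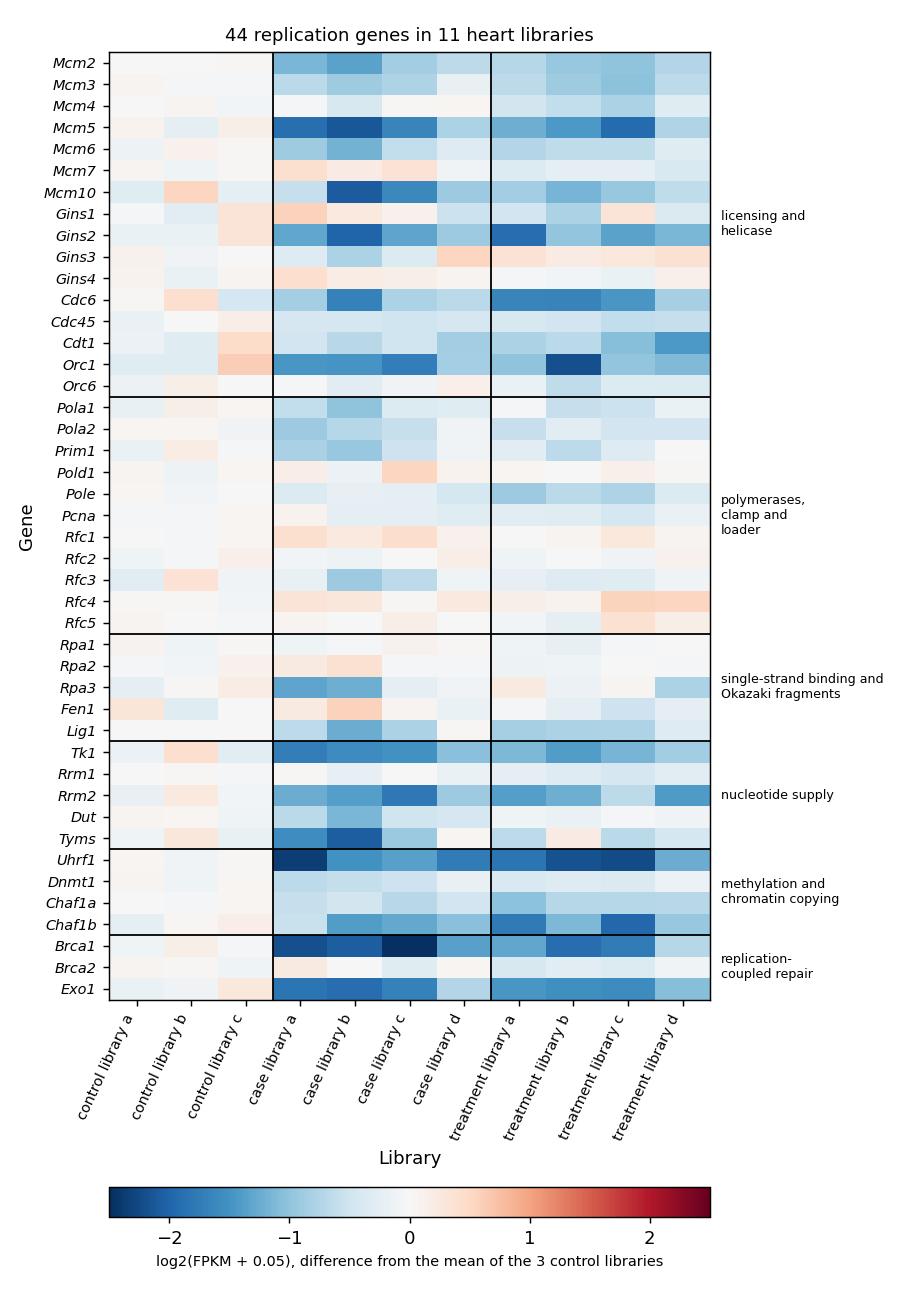
Each row is one of the 44 replication genes, sorted by role, and each column one of the 11 heart libraries. Colour gives the difference of log2(FPKM + 0.05) from the mean of the 3 control libraries (blue lower, red higher). The blue rows of Mcm2, Mcm5, Gins2, Orc1, Tk1, Rrm2, Uhrf1, Brca1 and Exo1 run through case and treatment libraries, with paler cells in case library d except for Uhrf1, whereas rows such as Rpa1 and Rfc2 stay pale.

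The sequences upstream of the members were examined for the short words that E2F factors are known to bind, since members that move together may share them. RefSeq promoters (GRCm38.p6, 250 bases before to 50 bases after each listed start) were matched by symbol for 37 of the 44 members and not for Exo1, Rfc2, Gins2, Pole, Gins4, Mcm4 and Gins1. The words TTTGGCGC, TTTCCCGC, TTTCGCGC and TTTGGCGG were searched on both strands, overlapping matches were merged, and a gene with several starts counted if any window held a word. Such a word stood in 18 of 37 members (48.6%), in 2.7% of the 27025 genes with a promoter and in 4.8% of the genes tested. Among the members that fell in the case group it stood in 9 of 15 (60.0%), and among the other members in 9 of 22 (40.9%). The CCAAT box (CCAAT, both strands), a frequent element of cell cycle promoters, stood in 64.9% of members, 41.1% of all genes and 42.6% of the genes tested, and the cell cycle homology region (TTTGAA, both strands) in 13.5%, 20.2% and 14.6%. A match is a description of these letters and not of a bound site.

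Shown here are the 250 bases before the start, none of them exonic, for 3 genes that fell and hold an E2F word, 1 that fell and holds none (Mcm2), and 1 that holds one and did not pass (Brca2). Capitals mark the E2F words, and each sequence reads 5′ to 3′ on the strand of its gene. Mcm6 lies at chr1:128359706-128359955 (minus strand) with words at -110 and -47 from the start, Mcm5 at chr8:75109259-75109508 (plus strand) with a run of overlapping words at -153, Uhrf1 (second listed start) at chr17:56304063-56304312 (plus strand) with a word at -185, Mcm2 at chr6:88898781-88899030 (minus strand), and Brca2 at chr5:150522371-150522620 (plus strand) with a word at -168.
Mcm6: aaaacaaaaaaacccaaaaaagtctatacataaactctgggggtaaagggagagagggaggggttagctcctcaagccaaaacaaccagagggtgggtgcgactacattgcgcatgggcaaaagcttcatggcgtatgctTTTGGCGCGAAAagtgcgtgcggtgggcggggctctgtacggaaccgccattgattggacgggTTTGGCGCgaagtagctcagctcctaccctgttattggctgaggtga
Mcm5: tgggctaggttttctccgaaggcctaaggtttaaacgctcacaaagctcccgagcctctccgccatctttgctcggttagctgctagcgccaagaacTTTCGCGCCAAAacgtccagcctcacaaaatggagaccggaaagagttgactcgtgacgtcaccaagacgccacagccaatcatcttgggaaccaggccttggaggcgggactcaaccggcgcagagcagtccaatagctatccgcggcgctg
Uhrf1: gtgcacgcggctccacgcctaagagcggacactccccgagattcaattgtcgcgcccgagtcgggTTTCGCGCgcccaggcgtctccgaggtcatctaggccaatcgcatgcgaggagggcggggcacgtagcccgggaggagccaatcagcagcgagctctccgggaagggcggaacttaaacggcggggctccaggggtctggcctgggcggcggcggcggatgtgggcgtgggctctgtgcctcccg
Mcm2: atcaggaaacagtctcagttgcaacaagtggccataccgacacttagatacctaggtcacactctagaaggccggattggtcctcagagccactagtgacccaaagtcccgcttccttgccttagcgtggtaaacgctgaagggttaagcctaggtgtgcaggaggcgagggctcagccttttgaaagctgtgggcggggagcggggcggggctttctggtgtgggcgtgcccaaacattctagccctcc
Brca2: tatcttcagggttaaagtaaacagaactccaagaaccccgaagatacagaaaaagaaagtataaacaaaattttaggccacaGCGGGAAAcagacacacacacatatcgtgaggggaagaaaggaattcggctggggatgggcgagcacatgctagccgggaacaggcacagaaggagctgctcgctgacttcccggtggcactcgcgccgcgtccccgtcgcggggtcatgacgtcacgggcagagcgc
The E2F words of Mcm6 and Mcm5 each include a run in which a word overlaps the reverse complement of another of the words searched, whereas the words of Uhrf1 and Brca2 stand alone.

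The subunits of the Mcm2 to Mcm7 ring did not fall together. Its 6 subunits work in equal numbers as proteins. In the control libraries their RNA levels were close, the highest subunit being 1.40 to 1.70 times the lowest. Protein was not measured, and levels of different genes depend on the 1 deposited length per gene. In the case libraries this ratio was 2.51 to 5.79, and in the treatment libraries 2.04 to 3.68. Mcm2, Mcm3, Mcm5 and Mcm6 fell in the case group, while Mcm4 and Mcm7 did not pass. Mcm7 stood at 1.01 to 1.19 times the FPKM of Mcm5 in control libraries, at 4.60 to 5.79 times in case libraries a to c, and at 1.80 times in case library d.

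Mcm5, a subunit at the gate through which the ring opens, fell most. Its level was 3.22, 2.56 and 3.36 FPKM in control libraries a to c, 0.780, 0.662, 0.926 and 1.72 in case libraries a to d, and 1.26, 1.09, 0.764 and 1.78 in treatment libraries a to d. Both stressed groups lay below the controls without overlap and overlapped each other. Its log2 fold change was -1.59 (SE 0.305) in case against control (adjusted p = 0.00706, edgeR). Without case library d it was -1.92.

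Mcm2, which forms the other side of the gate and also carries histones, measured 2.76, 2.75 and 2.82 FPKM in the control libraries, 1.24, 1.07, 1.50 and 1.75 in the case libraries, and 1.67, 1.41, 1.37 and 1.64 in the treatment libraries. The control libraries were almost equal and each stressed library was lower. The log2 fold change in case against control was -1.0 (SE 0.132, adjusted p = 0.00112, edgeR), with the lowest adjusted p of the members in that comparison.

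Mcm3 and Mcm6 fell less. Mcm3 was at 3.92, 3.67 and 3.61 FPKM in control, 2.32, 1.98, 2.16 and 3.26 in case, and 2.37, 2.0, 1.80 and 2.35 in treatment libraries. Mcm6 was at 3.54, 4.15 and 3.94 FPKM in control, 2.07, 1.69, 2.50 and 3.08 in case, and 2.31, 2.47, 2.46 and 3.14 in treatment libraries. In both genes case library d was the highest of the case group and did not reach the controls. The log2 fold changes in case against control were -0.62 for Mcm3 (SE 0.152, adjusted p = 0.0199, edgeR) and -0.74 for Mcm6 (SE 0.159, adjusted p = 0.0122, edgeR).

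Mcm4 and Mcm7, which belong to the catalytic core of the helicase, did not pass in case against control and were lower in the treatment than in the case group. Mcm4 was at 4.17, 4.34 and 3.95 FPKM in control, 3.99, 3.15, 4.26 and 4.32 in case, and 2.99, 2.69, 2.38 and 3.34 in treatment libraries. Mcm7 was at 3.46, 3.06 and 3.39 FPKM in control, 4.35, 3.83, 4.26 and 3.09 in case, and 2.60, 2.83, 2.81 and 2.53 in treatment libraries. Case libraries a to c lay above all other libraries in Mcm7, and case library d lay within the control range. In case against control the log2 fold change was -0.08 for Mcm4 (95% interval -0.36 to 0.20) and 0.25 for Mcm7 (-0.05 to 0.55), and Mcm7 passed only without case library d (0.37). Exons of Mcm7 overlap those of Cops6 and Ap4m1 in GENCODE M21, and since the strand setting of the counting is not given, reads of these genes cannot be told apart. The same limit holds for all 11 members whose exons overlap another protein-coding gene. Besides Mcm7 these are Cdc45, Chaf1a, Fen1, Gins2, Lig1, Orc6, Rfc2, Rfc4, Rfc5 and Tk1.

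**Figure D2:**
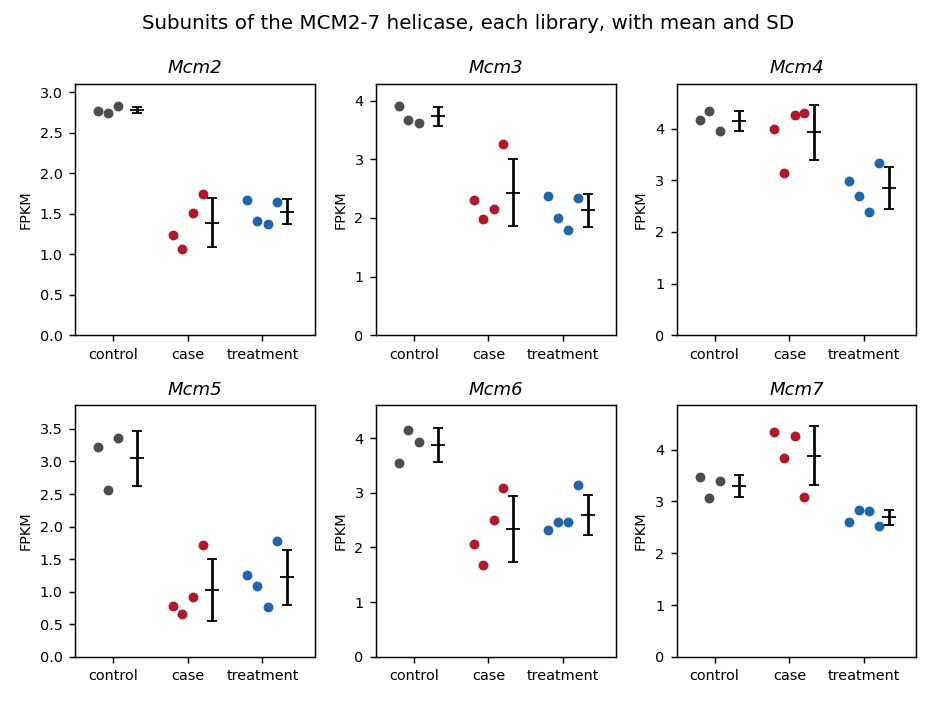
Levels in FPKM of the 6 subunits of the Mcm2 to Mcm7 ring, with 1 point per library and the mean ± SD of each group beside it (control n = 3, case n = 4, treatment n = 4). Mcm2, Mcm3, Mcm5 and Mcm6 lie lower in case and treatment than in control, whereas Mcm4 and Mcm7 have their lowest mean in the treatment group.

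The rest of the helicase was split as well. Among the 4 GINS subunits, which lock Cdc45 onto the ring, only Gins2 fell. Gins2 measured 0.408, 0.404 and 0.594 FPKM in control, 0.159, 0.0780, 0.156 and 0.224 in case, and 0.0868, 0.208, 0.152 and 0.181 in treatment libraries, with no overlap between control and either stressed group. Its log2 fold change was -1.61 in case against control (SE 0.363, adjusted p = 0.0143, edgeR). Gins4, the most abundant gene of this role, was at 7.74, 6.46 and 7.65 FPKM in control, 9.74, 8.21, 8.0 and 7.63 in case, and 7.09, 6.88, 6.47 and 7.88 in treatment libraries, and its log2 fold change of 0.22 (95% interval -0.08 to 0.52) did not pass. Gins1 (0.16) and Gins3 (-0.18) did not pass either, so that subunits of a complex with equal parts differed by over 1.5 on the log2 scale. Exons of Gins2 overlap those of Gse1.

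Of the loading factors, Orc1, the subunit of the origin recognition complex that is made anew in each cycle, was near the detection limit. It had 15, 14 and 34 reads in control, 4, 4, 2 and 8 in case, and 7, 0, 7 and 6 in treatment libraries, and the library at 0 allows up to 3 reads. Its control level was 0.136, 0.136 and 0.305 FPKM, its case level 0.0341, 0.0334, 0.0193 and 0.0781, and its treatment level 0.0650, 0, 0.0660 and 0.0580. The stressed groups lay below the control group throughout. The log2 fold change in case against control was -2.20 (SE 0.674, adjusted p = 0.046, edgeR), and it passed in only 2 of the 11 fits that left out 1 library.

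Cdc6 (log2 -1.19, adjusted p = 0.0553), Cdt1 (-0.68, 0.0898), Cdc45 (-0.46, 0.0734) and Mcm10 (-1.76, 0.0541), an initiation factor that activates the helicase, did not pass with edgeR in case against control, although each case library was below each control library in all 4. Orc6, which has roles beyond S phase, was at -0.07 (adjusted p = 0.789). In all, 6 of 16 genes of licensing and the helicase fell, with a median of -0.65.

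Among the polymerases, the clamp and its loader, 2 of 11 fell, both of them subunits of polymerase alpha, the enzyme that starts each new strand. Pola2 was at 3.30, 3.29 and 2.98 FPKM in control, 1.67, 1.93, 2.11 and 2.98 in case, and 2.12, 2.61, 2.28 and 2.27 in treatment libraries. Case library d was level with the lowest control library. The log2 fold change was -0.56 for Pola2 (SE 0.139, adjusted p = 0.0216, edgeR) and -0.57 for Pola1 (SE 0.175, adjusted p = 0.0471, edgeR), and Pola1 passed in 2 of 11 fits that left out 1 library. Their partner Prim1, the primase that lays down the RNA primer, was at 0.726, 0.942 and 0.798 FPKM in control, 0.444, 0.398, 0.556 and 0.764 in case, and 0.660, 0.501, 0.644 and 0.809 in treatment libraries, and its -0.61 did not pass (adjusted p = 0.0975, edgeR).

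The elongating enzymes did not pass in case against control. Pcna, the clamp and the most abundant of the 44 genes, measured 12.2, 12.1 and 12.7 FPKM in control, 13.1, 10.5, 10.4 and 10.0 in case, and 10.1, 10.0, 9.04 and 11.03 in treatment libraries. Case library a was above the controls and the other case libraries were below them. Its log2 fold change of -0.15 (95% interval -0.42 to 0.12) did not pass. Pold1, the catalytic subunit of the lagging strand polymerase, was at 0.19 (adjusted p = 0.343) and Pole, that of the leading strand polymerase, at -0.31 (0.192). In treatment against control Pole was at -0.72 (SE 0.157, adjusted p = 0.0531, edgeR), with each treatment library below each control library, and it passed in 4 of the 6 alternatives that keep each library. The 5 clamp loader genes Rfc1 to Rfc5 ranged from -0.48 (Rfc3) to 0.32 (Rfc1), none of which passed with edgeR, and Rfc1 rose with DESeq2 (adjusted p = 0.0384).

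None of the 5 genes of single-strand binding and Okazaki fragments passed in case against control with edgeR, and at an unadjusted p under 0.05 only Lig1 was lower. Rpa1, the large subunit of replication protein A, which also serves repair in resting cells, was at 9.93, 8.70 and 9.57 FPKM in control, 8.70, 9.20, 10.1 and 9.56 in case, and 8.76, 8.17, 9.17 and 9.44 in treatment libraries, with all 3 groups overlapping. Its log2 fold change was 0.01 with a 95% interval of -0.17 to 0.18. Rpa3, the smallest subunit, was at 2.14, 2.56 and 2.85 FPKM in control, 0.966, 1.05, 2.10 and 2.33 in case, and 2.93, 2.24, 2.63 and 1.42 in treatment libraries. Case libraries a and b and treatment library d were the 3 lowest, and the difference of -0.66 did not pass (adjusted p = 0.177). Lig1, the ligase of the lagging strand, was at -0.62 (adjusted p = 0.0967) and passed only without case library d, in which it was as high as in the controls (1.65 FPKM beside 1.60 to 1.62).

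In nucleotide supply, 3 of 5 genes fell. Tk1, the thymidine kinase of S phase, was at 0.595, 0.909 and 0.540 FPKM in control, 0.165, 0.190, 0.200 and 0.294 in case, and 0.280, 0.222, 0.271 and 0.343 in treatment libraries. The highest stressed library was below the lowest control library. The log2 fold change in case against control was -1.68 (SE 0.263, adjusted p = 0.00278, edgeR). Exons of Tk1 overlap those of Afmid.

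Rrm2, the regulated subunit of ribonucleotide reductase, was at 1.81, 2.46 and 1.96 FPKM in control, 0.845, 0.766, 0.558 and 1.07 in case, and 0.758, 0.859, 1.29 and 0.740 in treatment libraries, again without overlap with control. Its log2 fold change in case against control was -1.35 (edgeR, SE 0.248, adjusted p = 0.00585). Its partner Rrm1, which is present through the cell cycle, was at -0.07 (95% interval -0.28 to 0.14). Tyms, thymidylate synthase, was at 0.783 to 1.10 FPKM in control and at 0.177 to 0.447 FPKM in case libraries a to c, but at 0.921 FPKM in case library d, and its -1.02 did not pass (adjusted p = 0.115, edgeR).

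Dut, which removes dUTP so that uracil is kept out of DNA, was the one member that fell in the case group and rose in the treatment group against the case group. It was at 4.23, 4.17 and 3.78 FPKM in control, 2.51, 1.81, 2.86 and 3.02 in case, and 3.77, 3.61, 3.90 and 3.84 in treatment libraries. The case libraries lay below both other groups, which overlapped each other. In case against control, the log2 fold change was -0.67 (SE 0.136, adjusted p = 0.00931), and it was 0.55 in treatment against case (SE 0.128, adjusted p = 0.0245), both with edgeR, and -0.12 in treatment against control (95% interval -0.42 to 0.18).

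All 4 genes of methylation and chromatin copying fell. Uhrf1, which recognises half-methylated DNA behind the fork and brings in Dnmt1, was at 2.59, 2.34 and 2.55 FPKM in control, 0.446, 0.839, 0.947 and 0.702 in case, and 0.668, 0.511, 0.485 and 1.03 in treatment libraries. Each stressed library held less than 1.10 FPKM and each control library more than 2.30 FPKM. It was 3.38-fold lower in the case group (log2 -1.76, SE 0.279, adjusted p = 0.0029, edgeR), and here case library d was not the nearest to control.

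Dnmt1, the maintenance methyltransferase, was at 6.79, 5.96 and 6.66 FPKM in control, 4.10, 4.25, 4.52 and 5.64 in case, and 4.93, 5.14, 5.01 and 5.83 in treatment libraries, without overlap with control but with a fall of only 0.48 (log2, SE 0.098, adjusted p = 0.00964, edgeR). Chaf1a, the large subunit of the histone chaperone CAF-1, was at 0.752, 0.724 and 0.785 FPKM in control, 0.489, 0.535, 0.448 and 0.530 in case, and 0.343, 0.442, 0.437 and 0.444 in treatment libraries. Both stressed groups of Chaf1a lay below the controls without overlap. Its log2 fold change was -0.58 in case against control (SE 0.147, adjusted p = 0.0229, edgeR), and that of its partner Chaf1b was -1.20 (SE 0.363, adjusted p = 0.045, edgeR), on 23 to 48 reads per case library.

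Replication-coupled repair held the widest contrast between members. Brca1, which guards stalled forks and starts recombination, was at 0.433, 0.522 and 0.453 FPKM in control, 0.0625, 0.0749, 0.0315 and 0.151 in case, and 0.159, 0.0877, 0.104 and 0.264 in treatment libraries. These levels rest on 117 to 132 reads per control library, 8 to 38 per case library and 22 to 67 per treatment library. The case group was 5.86-fold lower than control (log2 -2.55, SE 0.453, adjusted p = 0.00489, edgeR), the largest fall of the 44.

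Exo1, an exonuclease that resects DNA ends and serves mismatch repair, was at 0.184, 0.196 and 0.266 FPKM in control, 0.0246, 0.0207, 0.0319 and 0.109 in case, and 0.0460, 0.0404, 0.0389 and 0.0759 in treatment libraries. Case library d was the highest stressed library, and none reached the controls. The log2 fold change was -2.24 (SE 0.49, adjusted p = 0.0129, edgeR). Brca2, which acts in homologous recombination, was at 0.604, 0.586 and 0.523 FPKM in control, 0.674, 0.569, 0.456 and 0.588 in case, and 0.422, 0.461, 0.442 and 0.530 in treatment libraries. Control and case overlapped fully, and the log2 fold change was 0.02 with a 95% interval of -0.33 to 0.36. Its 185 to 310 reads per case library exceeded those of Brca1, although the control levels of both genes were close.

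**Figure D3:**
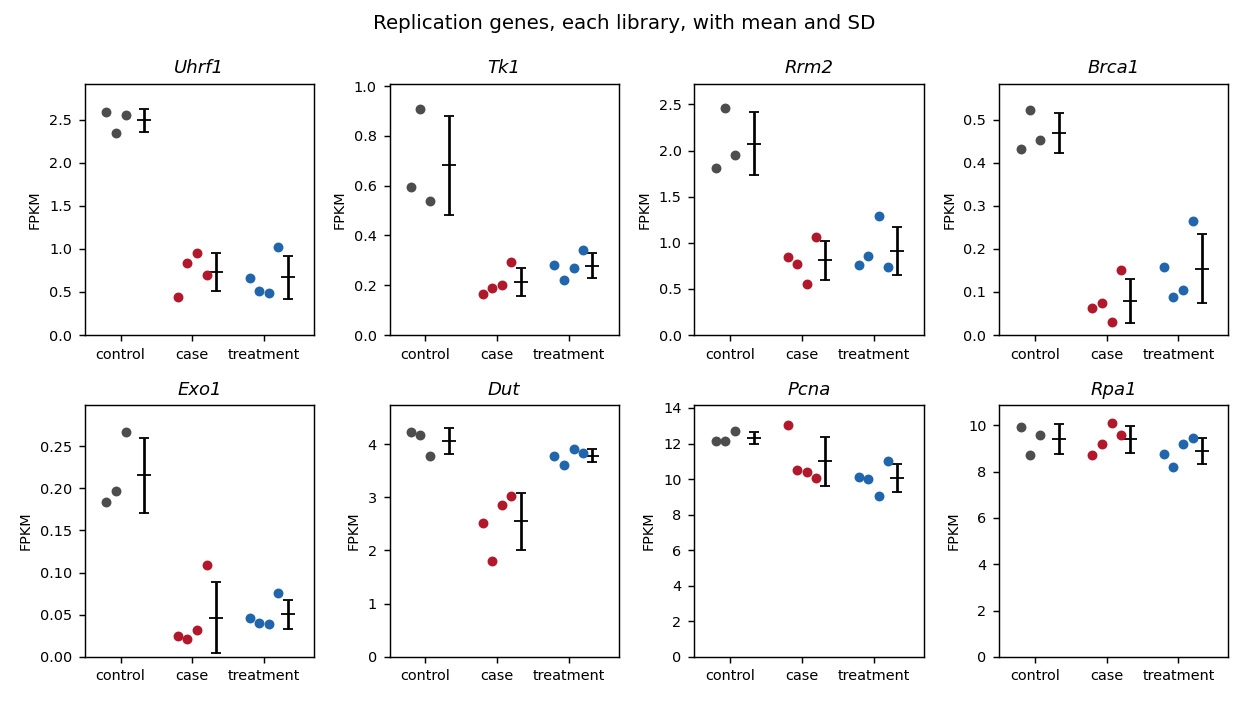
Levels in FPKM of 8 replication genes, with 1 point per library and the mean ± SD of each group beside it (control n = 3, case n = 4, treatment n = 4). Uhrf1, Tk1, Rrm2, Brca1 and Exo1 are lower in both stressed groups, Dut is lower in the case group and not in the treatment group, and Pcna and Rpa1 differ little.

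Members that fell were found among both abundant and scarce genes of the control hearts. Of the 29 members at 1 FPKM or more on average in control, 10 fell in the case group, and of the 15 under 1 FPKM, 7 fell. Of the 10 most abundant members, 4 fell (Dnmt1, Dut, Mcm6 and Mcm3) and the first 4 in order (Pcna, Rpa1, Rfc1 and Gins4) did not pass.

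Treated mice were compared with the same control libraries, so that the values below share them with those above. In treatment against control, 6 of 44 members fell (Mcm2, Mcm3, Tk1, Rrm2, Uhrf1 and Chaf1a), 0 rose and 38 did not pass with edgeR, beside 0.79% of all genes tested that fell and 0.292% that rose. At an unadjusted p under 0.05, 26 were lower and 0 were higher, and 0 rose with DESeq2 or limma. The median log2 fold change was -0.40, beside 0.01 for all genes, and 26 of 44 had each treatment library below each control library, beside 10.5% of all genes. In 2 members, Gins3 and Rfc4, each treatment library was above each control library, beside 1259 of the 14050 genes tested. The threshold of the study was passed by 12 members with edgeR, all lower, beside 2.97% of all genes, and by fewer members with limma. The adjusted count moved with the fit. It was 16 with DESeq2, 13 with limma, 20 when only these 2 groups entered the fit and 17 without case library d. Over all genes, 416, 201, 816 and 347 passed in these fits, beside 152 in the fit that gave 6 members. By contrast, leaving out a control library (a, b or c) gave 0, 1 and 0. Leaving out treatment library b or c gave 3, beside 83 and 57 of all genes. In those 3 fits without a control library, 24, 24 and 22 members were lower at an unadjusted p under 0.05, while 25, 31 and 21 of all genes passed.

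Among the 6 members that passed in treatment against control, Uhrf1, Tk1 and Rrm2 had the largest falls. Uhrf1 was at -1.90 (SE 0.28, adjusted p = 0.00864, edgeR), Tk1 at -1.30 (SE 0.26, adjusted p = 0.0381, edgeR) and Rrm2 at -1.21 (SE 0.248, adjusted p = 0.0404, edgeR). Mcm2 was at -0.88 (adjusted p = 0.00882), Chaf1a at -0.87 (0.0179) and Mcm3 at -0.83 (0.0262). Exo1 (-2.11), Orc1 (-2.01), Cdc6 (-1.75), Chaf1b (-1.68), Brca1 (-1.62), Gins2 (-1.60) and Mcm5 (-1.33) had larger or similar differences and adjusted p of 0.0565 to 0.241, and none of these passed.

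**Figure D4:**
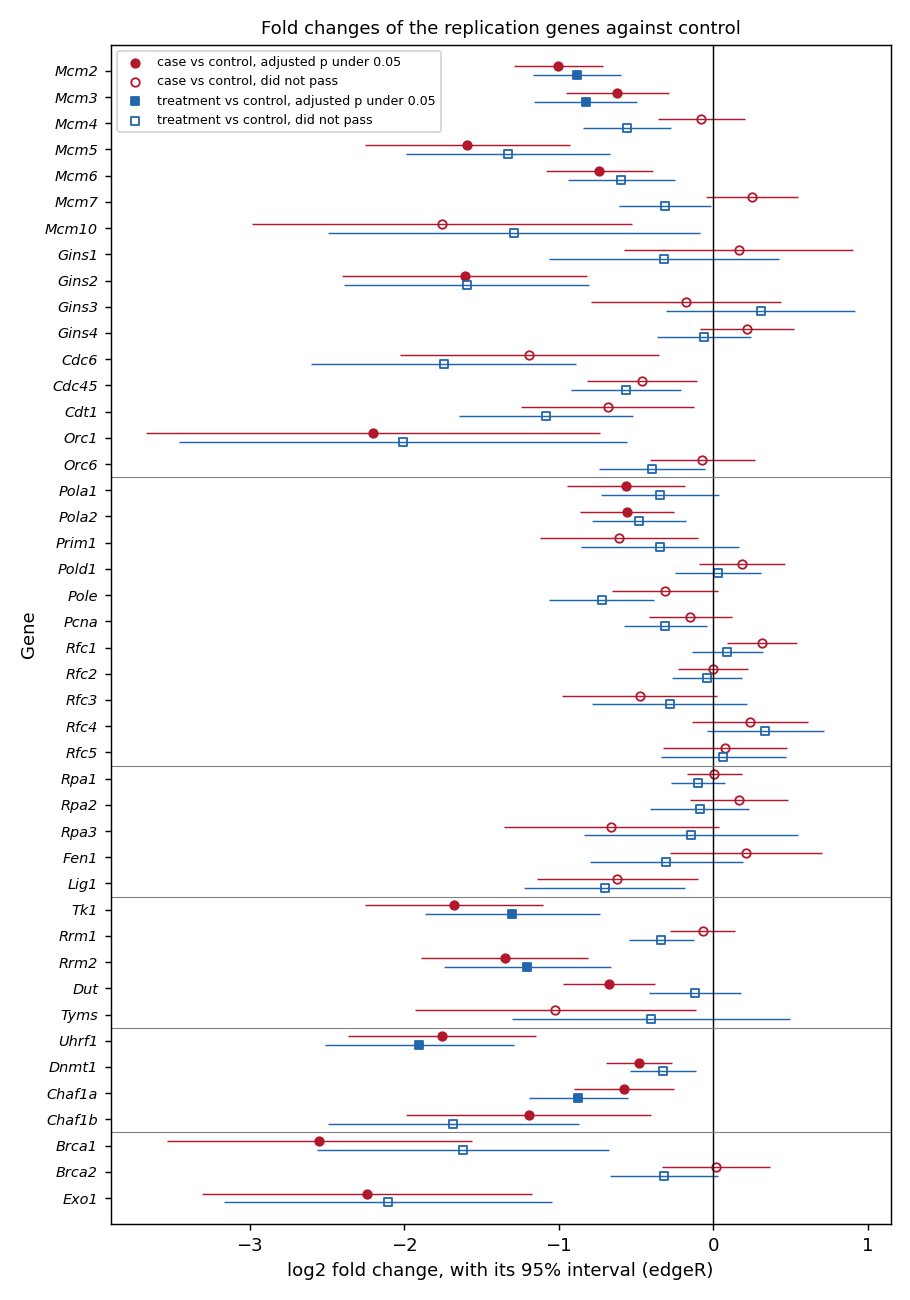
Log2 fold changes of the 44 genes against control with their 95% intervals (edgeR), for the case group (red circles) and the treatment group (blue squares), filled where the adjusted p was under 0.05. Lines part the roles. Most points of both groups lie left of 0, and 17 red and 6 blue ones are filled.

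Treatment and case groups were compared directly to ask whether JWH133 under stress came with other levels than stress alone. Of 44 members, 2 fell (Mcm4 and Mcm7), 1 rose (Dut) and 41 did not pass with edgeR, beside 6.57% of all genes tested that fell and 4.33% that rose. The median log2 fold change was -0.06, beside 0.01 for all genes. In 2 members each treatment library was below each case library, beside 6.87% of all genes. No member passed the threshold of the study (0 of 44), beside 5.34% of all genes, and at an unadjusted p under 0.05, 8 were lower and 1 higher.

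Mcm4 was at -0.48 (SE 0.121, adjusted p = 0.0315) and Mcm7 at -0.56 (SE 0.126, adjusted p = 0.0223) in this comparison with edgeR. In both genes the treatment libraries were also low against control, at -0.56 for Mcm4 (adjusted p = 0.0679) and -0.32 for Mcm7 (adjusted p = 0.401), which did not pass. These calls depend on single libraries. Without case library d, 10 members passed, of which 6 fell (Mcm4, Mcm7, Pole, Rfc1, Fen1 and Rrm1) and 4 rose (Gins3, Dut, Tyms and Brca1). Over all genes, 4392 passed in that fit, beside 1531 with each library kept, so this rise was not particular to the members. Without case library a, treatment library a or treatment library b, 0 members passed, with 5, 6 and 6 members at an unadjusted p under 0.05. In these fits 375, 462 and 373 of all genes passed. Without treatment library c or d 1 member passed, beside 599 and 461 of all genes. When only these 2 groups entered the fit, 0 members passed, beside 270 of all genes.

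For the 6 genes with the largest falls in the case group, the interval of the difference between treatment and case was wide. Brca1 was at 0.93 (95% interval -0.03 to 1.89), Exo1 at 0.13 (-0.95 to 1.22), Orc1 at 0.19 (-1.39 to 1.77), Uhrf1 at -0.15 (-0.73 to 0.44), Tk1 at 0.38 (-0.17 to 0.93) and Gins2 at 0.01 (-0.77 to 0.79). Chaf1b was at -0.49 (-1.27 to 0.30), and Mcm2, with its even libraries, had a narrower interval around 0.12 (-0.15 to 0.39). None of these 8 passed.

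Other genes of the same process were taken from further lists, and some of these genes also act outside S phase. Of 43 other replication genes, 9 fell in the case group, 0 rose and 34 did not pass with edgeR (median -0.14). The 4 of lowest p were Top2a, which untangles copied DNA (-2.70, adjusted p = 0.000896), Pclaf, a partner of Pcna (-3.04, 0.00185), Ticrr, which helps to load Cdc45 (-3.31, 0.00313), and Asf1b, a histone chaperone (-1.47, 0.00398). Of 38 genes of other fork and recombination repair, 12 fell, 1 rose and 25 did not pass (median -0.17), and among those that fell were Fanci (-2.14, 0.00323), Xrcc2 (-0.96, 0.00354) and Rmi2 (-3.14, 0.00612). Of 22 genes of S-phase control, 7 fell, 0 rose and 15 did not pass (median -0.41), among them Ccna2 (-2.52, 0.000561), Cdk1 (-2.27, 0.000843), Ccnd1 (-1.25, 0.000845) and the transcription factor E2f1 (-2.15, 0.00373).

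Markers of mitosis, which mark cells in division and not in S phase, were lower too. Of 20, 19 fell in the case group and 10 in the treatment group against control, with summed levels of 19.4 to 21.0 FPKM in control, 4.66 to 7.30 FPKM in case and 5.92 to 7.96 FPKM in treatment libraries. The summed level of the 44 replication genes was 110.8 to 115.6 FPKM in control, 89.2 to 99.9 FPKM in case and 87.4 to 96.7 FPKM in treatment libraries. The median log2 fold change of the mitosis genes was -2.33 in case against control, beside -0.56 for the 44.

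Genes related to members and taken as their counterparts outside S phase were measured as a contrast. Not each of them does the same work as the member it is set beside. Of 10 such counterparts, 1 fell (Dnmt3a, -1.14, adjusted p = 0.00061), 2 rose (Tk2, the mitochondrial thymidine kinase, 0.51, 0.015, and Uhrf2, 0.41, 0.0216) and 7 did not pass in case against control with edgeR. The ratio of Tk1 to Tk2 FPKM was 0.145 to 0.281 in control, 0.0325 to 0.0659 in case and 0.0581 to 0.0816 in treatment libraries. The ratio of Rrm2 to Rrm2b, the subunit used by resting cells, was 0.335 to 0.435 in control, 0.0843 to 0.189 in case and 0.127 to 0.215 in treatment libraries. The ratio of Uhrf1 to Uhrf2 was 0.428 to 0.541 in control, 0.0595 to 0.130 in case and 0.0816 to 0.206 in treatment libraries. In these 3 pairs the ranges of the stressed groups lay below the control range. The ratio of Lig1 to Lig3 was 0.188 to 0.212 in control, 0.0932 to 0.252 in case and 0.129 to 0.190 in treatment libraries, which overlapped. The ratio of Dnmt1 to Dnmt3a, a methyltransferase that sets new marks, went the other way, from 0.583 to 0.696 in control to 0.853 to 1.20 in case libraries, and was 0.654 to 0.777 in treatment libraries, which overlapped control.

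Among the genes that hold cells back from S phase, 3 of 13 tested rose in the case group and 2 fell (Cdkn1c and Rbl1). Cdkn1a, an inhibitor of cyclin-dependent kinases that also binds Pcna, was at 4.62, 5.13 and 4.50 FPKM in control, 90.2, 71.7, 27.6 and 7.87 in case, and 9.87, 10.4, 5.97 and 5.64 in treatment libraries. It rose by 3.44 in case against control (adjusted p = 0.00865) and fell by 2.71 in treatment against case (adjusted p = 0.0207, edgeR). Case library d had the lowest Cdkn1a of the case group. Cdkn1b (0.77, 0.00536) and Rbl2 (0.82, 0.0174) rose in the case group, and the relation of these genes to the members was not tested.

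**Figure D5:**
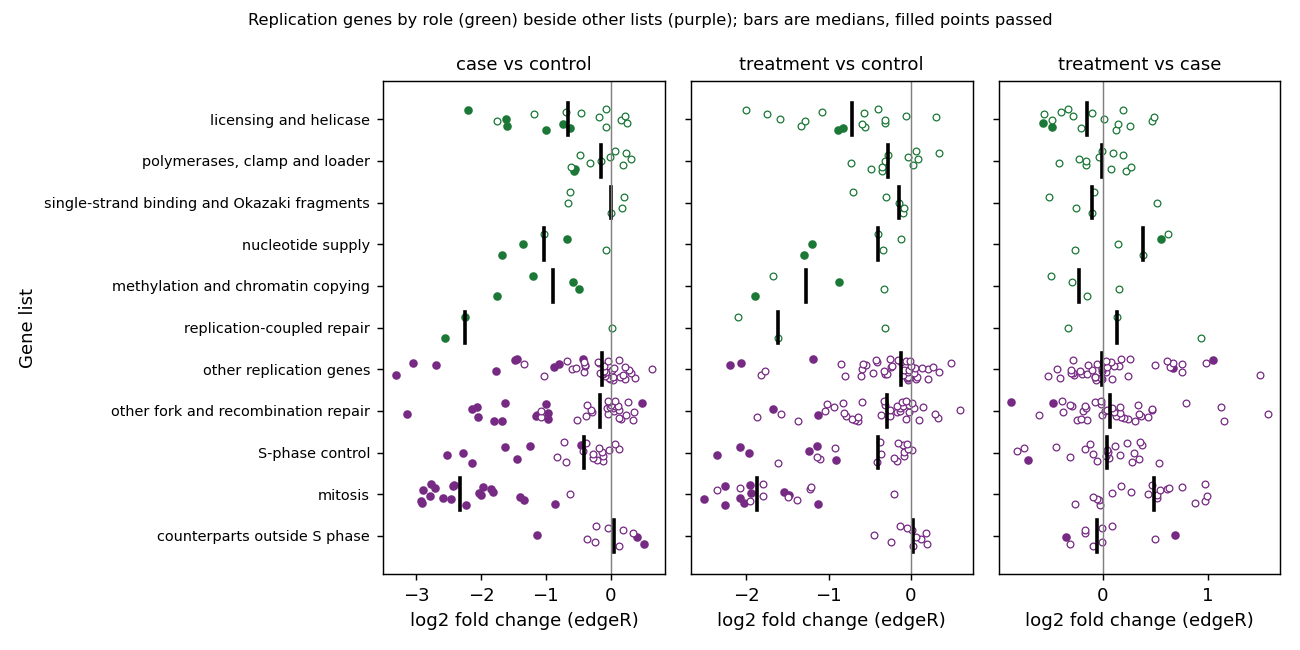
Log2 fold changes (edgeR) of the 44 replication genes by role (green) and of other gene lists (purple) in the 3 comparisons, with 1 point per gene, filled where the adjusted p was under 0.05, and a bar at the median of each list. Mitosis has the lowest median of the lists in both comparisons against control, and the medians of treatment against case lie near 0 for most lists.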

How the data were processed

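Paired-end libraries of heart RNA (11 of 22 samples) were analysed, and the other 11 samples, single-end libraries, were not analysed here. The authors deposited 1 table with raw counts of reads per gene and 1 length per gene, and levels are given as FPKM computed here (count times 1000000000 over the length in bases and the library total). A further 11 columns of values per library were not used. Cutadapt, HISAT2, TopHat2 and mm10 are named in the processing notes of the submitters. Which program counted the reads, on which strand and with which annotation is not given in the sources used here, nor are versions. The RNA was primed with random hexamers. A blank line was skipped.

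Libraries were grouped by labels and column names. The replicates are described as separate mice, and no pair within a group agreed within sampling noise (lowest chi-square per degree of freedom 7.71). Raw counts of the 14050 genes past the filter of edgeR 4.0.16 (R 4.3.3) were scaled by TMM and fitted over all 11 libraries with 1 mean per group, and the quasi-likelihood test was adjusted by Benjamini-Hochberg over all genes. A gene rose or fell at an adjusted p under 0.05. Alternatives were DESeq2 1.42.0, limma 3.58.1 on log2(FPKM + 1), other scalings, no filter, only the 2 groups compared, and each library left out. In simulated counts, 2-fold changes were recovered for 74%, 72% and 77% of genes and 4-fold changes for 90%, 91% and 90% in case against control, treatment against control and treatment against case. The simulation changed genes drawn at random from all those tested and gave the groups a common spread per gene. In the data, pairs of case libraries differed more than pairs of control libraries (chi-square per degree of freedom 33.4 to 143.6 beside 7.71 to 15.3). The recovered shares are therefore not the power for the members. Figures were drawn with matplotlib 3.10.9 (Python 3.11.15, pandas 2.3.3, numpy 2.4.6).

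The members and lists were chosen with earlier results of these data known. Values per library were given for up to 14 members of lowest adjusted p, for the most abundant and the most changed member of each role, and for any member that rose. Mcm4 and Mcm7 were added after their values were seen.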

Additional observations from a re-analysis of the deposited data

Results flagged for a closer look

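Of 46 sets of 4 libraries of the members with a value given for each library, 4 held a library far from the other 3, and chance alone gives about 1 in 20. In the treatment group Orc1 was at 0 FPKM in library b, beside 0.0580 to 0.0660 FPKM in the others, on at most 7 reads per library. In the same group Chaf1a was at 0.343 FPKM in library a, beside 0.437 to 0.444 FPKM. In the case group Pcna was at 13.1 FPKM in library a, beside 10.0 to 10.5 FPKM, and Exo1 was at 0.109 FPKM in library d, beside 0.0207 to 0.0319 FPKM.

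Whether the response to stress against the shared controls differed between untreated and treated mice was asked for each member. The difference passed for 3 of 44, beside 6.57% of all genes tested that fell and 4.33% that rose in treatment against case. None of the 3 passed in all 11 fits that left out 1 library. When only these 2 groups entered the fit, 0 members passed, beside 270 of all genes. The direct comparison of the treatment and case groups with edgeR, which is the test of this difference, gave log2 fold changes of -0.48 for Mcm4, -0.56 for Mcm7 and 0.55 for Dut.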

How the results depend on the processing

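The count of members called in case against control (17) was 11 with only the libraries of those 2 groups and 8 to 24 when 1 library was left out. In treatment against control (6) it was 16 with DESeq2, 13 with limma, 20 with only the 2 groups and 0 to 17 when 1 library was left out. In treatment against case (3) it was 0 with only the 2 groups and 0 to 10 when 1 library was left out. The calls over all genes moved as well. With 1 library left out they were 704 to 4479 in case against control (2215 otherwise). They were then 21 to 347 in treatment against control (152) and 373 to 4392 in treatment against case (1531). With only the 2 groups compared they were 858, 816 and 270. Past the threshold of the study, limma on log2(FPKM + 1) left 2 members in case against control (13 otherwise) and 1 in treatment against control (12), a scale that understates the change of low genes, and leaving out 1 library gave 10 to 13, 10 to 12 and, in treatment against case, 0 to 2. No call of a member turned its direction in the alternatives run. All calls of the 3 comparisons (17, 6 and 3) were shared with the fit without case library d. Of the 17, 11 were kept in all 6 alternatives that keep each library, and of the 6 and 3, 3 and 0 were. No paired analysis was possible because the columns carry letters, which no source used here links to the numbered replicates of the labels. With 3 control libraries, calls rest on each of them, and members such as Orc1, with 0 to 34 reads per library, have a wide counting error.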
